A study of Mus musculus with 6 samples.

Results

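The glucocorticoid receptor and its response genes were examined in mouse dermal fibroblasts that had been cultured under adipogenic conditions with or without Nelfb, a subunit of the negative elongation factor that holds RNA polymerase II in a paused state. The list held 10 of the 17924 genes in the table, chosen by gene symbol: Nr3c1, Nr3c2, Hsd11b1, Fkbp5, Tsc22d3, Zbtb16, Sgk1, Mt1, Mt2 and Dusp1. All 10 were found and all 10 passed the filter on low values. Bulk RNA-seq had been carried out on 3 control (CTL) and 3 Nelfb-/- libraries, described as biological triplicates, from dorsal dermal fibroblasts of newborn C57BL/6J mice kept for 14 days in adipocyte differentiation medium. CTL mice carried Pdgfra-Cre+ together with either Nelfb fl/wt or Nelfb wt/wt, and the genotype of each CTL library is not given in the sources used here. Nelfb-/- mice carried Pdgfra-Cre+ with Nelfb fl/fl. Both groups therefore carried Pdgfra-Cre, which deletes only in cells of the Pdgfra lineage and their descendants. Whether the medium contained a glucocorticoid is not given in the sources used here.

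Glucocorticoids enter cells and bind the glucocorticoid receptor, encoded by Nr3c1, which waits in the cytoplasm in a complex with Hsp90 and its cochaperones. The bound receptor moves to the nucleus and activates genes from palindromic response elements, or represses inflammatory genes, largely together with other transcription factors. The enzyme encoded by Hsd11b1 regenerates active glucocorticoid from its inert form inside the cell and is well known in adipose tissue, and glucocorticoids are a common ingredient of adipogenic media because they help preadipocytes to differentiate.

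Values were CPM, the number of reads of a gene for every 1e+06 reads of the library. A gene was called past the threshold when its Benjamini-Hochberg adjusted p from limma was at most 0.05 and its change was at least 2-fold. Nelfb itself lay at 17.3, 19.7 and 22.3 CPM in CTL and at 5.50, 3.90 and 5.55 CPM in Nelfb-/- libraries, a log2 fold change of -1.99 ± 0.22 (SE, n = 3 per group, adjusted p = 0.0050, limma). The libraries held 17.2 M to 29.4 M reads (M, 1e+06) on the listed genes, so that 3 reads were worth 0.102 to 0.175 CPM, well below the lowest member value. CTL replicate 3 and Nelfb-/- replicate 1 stood apart from the other libraries of their groups. The summed level of 8 adipocyte markers was 42210, 38980 and 25890 CPM in CTL replicates 1 to 3 and 17450, 25570 and 21590 CPM in Nelfb-/- replicates 1 to 3, so that the labelled cell type was seen in every library. The summed level of 8 fibroblast markers was 5078, 4404 and 16810 CPM in CTL and was 8255, 30530 and 33210 CPM in Nelfb-/- libraries. Of the adipocyte markers 1, Lep, rose past the threshold and 0 fell (3 were lower at an unadjusted p under 0.05 in limma), and of the fibroblast markers 0 passed (4 were higher at an unadjusted p under 0.05). Among all genes tested, 7.58% rose past the threshold and 3.64% fell.

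Sequence upstream of the members was read from RefSeq (GRCm38.p6) as the 250 bases before each annotated start. A window was found for 8 of the 10 members, 15 windows in all, and none was found for Nr3c1 or Zbtb16. The full palindrome of the glucocorticoid response element was searched on both strands as AGAACA and TGTTCT with any 3 bases between them. It occurred in 3 of 32851 windows (0.00913%), and among the members only in 1 of the 6 windows of Sgk1, beginning 189 bases upstream of a start at position 21993890 of chromosome 10. No match in these windows does not show that a gene lacks an element, since only exact matches within 250 bases were searched. The Sgk1 window is shown because it was the only member window with the whole element, which stands in capitals. No annotated exon overlapped the window. It spans chr10:21993640-21993889 on the plus strand.
Sgk1: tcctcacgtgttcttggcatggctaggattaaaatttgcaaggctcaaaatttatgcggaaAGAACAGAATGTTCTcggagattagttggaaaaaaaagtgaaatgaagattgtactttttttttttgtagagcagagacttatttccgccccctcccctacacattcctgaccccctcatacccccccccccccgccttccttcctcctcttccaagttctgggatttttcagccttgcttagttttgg

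The left arm of that element alone, AGAACA, which the palindrome contains, was in 4 member windows, from Sgk1 and Tsc22d3, against 16.1% of all windows. Metallothionein genes are also known for metal response elements, bound by the zinc sensor Mtf1. The cores TGCACNC and TGCGCNC were found on either strand in 21.4% of all windows and in the windows of 4 members, Hsd11b1, Nr3c2, Mt1 and Mt2. The window of Mt2 is shown because it held 3 matches, the most of any member, in capitals and beginning 223, 128 and 50 bases before the RefSeq start at 94172618, which lies upstream of the GENCODE start of the gene. It spans chr8:94172368-94172617 on the plus strand, and all 250 bases also lie in an exon of Gm45774, a gene annotated on the opposite strand.
Mt2: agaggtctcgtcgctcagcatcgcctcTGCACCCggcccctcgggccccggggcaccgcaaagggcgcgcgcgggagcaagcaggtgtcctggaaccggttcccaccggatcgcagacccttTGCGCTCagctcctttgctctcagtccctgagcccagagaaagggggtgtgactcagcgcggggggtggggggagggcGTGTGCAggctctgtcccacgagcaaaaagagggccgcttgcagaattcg

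The mRNA of the receptor itself differed between the groups by less than the spread between libraries, while Hsd11b1 was lower in Nelfb-/- cells. Of the 10 members, 1 was past the threshold, Hsd11b1, which fell 4.69-fold, against 11.2% of all 16252 genes tested. Of all genes tested, 7.58% were called higher and 3.64% lower. At the adjusted p alone, without the 2-fold limit, Tsc22d3 was lower as well, and 2 of the 10 members against 15.8% of all genes then passed (9.96% higher and 5.83% lower). The values of the groups did not overlap for the same 2 members, with Nelfb-/- below CTL in both, against 38.1% of all genes tested in either direction and 16.1% with Nelfb-/- below. In either direction, the share of members was near the background for the calls and below it for groups that did not overlap. All of these members were lower, so their counts of 1, 2 and 2 of 10 stand against 3.64%, 5.83% and 16.1% of all genes when only the lower direction is counted. The median log2 fold change was 0.08 over the members and 0.07 over all genes tested.

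**Figure D1:**
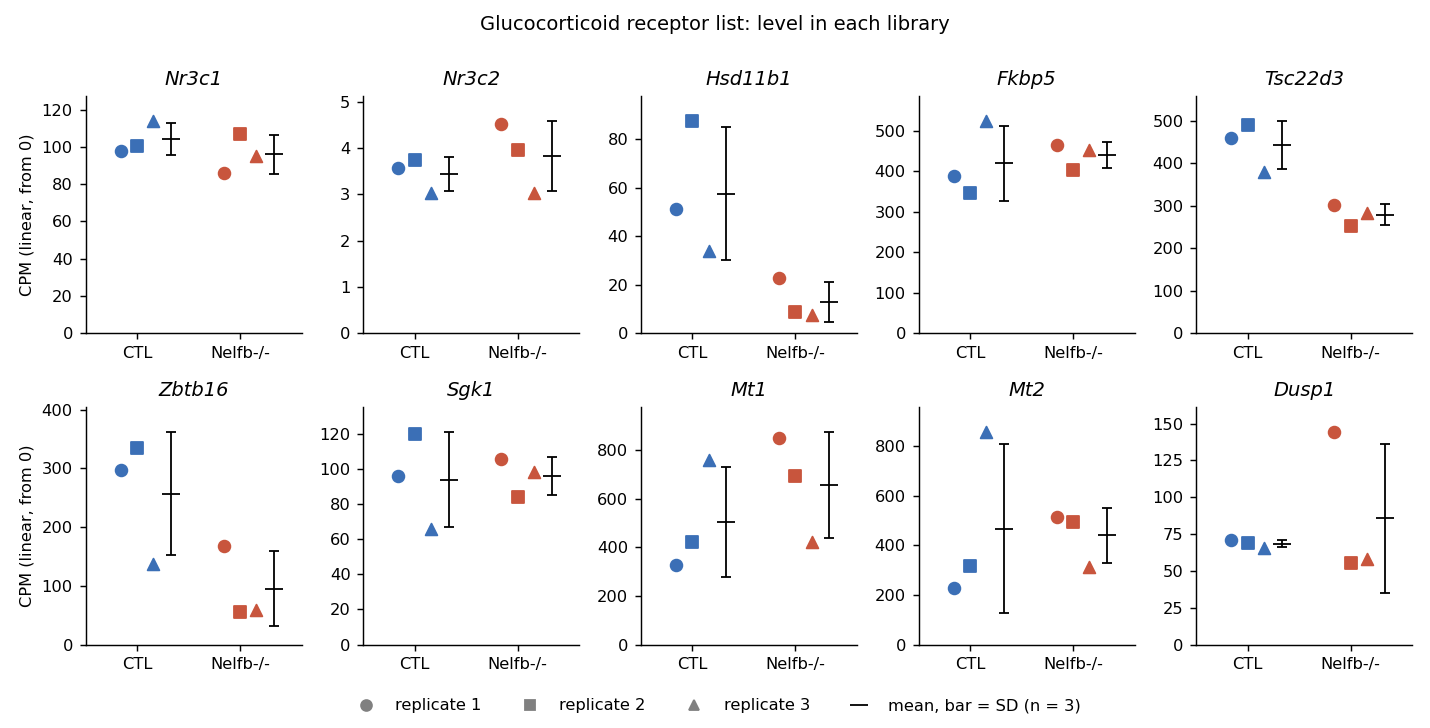
Level of each member in each library, in CPM on a linear axis from 0, with CTL in blue and Nelfb-/- in red and a symbol for each replicate number; the black mark is the mean and its bar the SD of 3 libraries. The Nelfb-/- points of Hsd11b1 and Tsc22d3 all lie below the CTL points, and those of the other 8 members overlap with CTL.

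Nr3c1 (ENSMUSG00000024431, chromosome 18, 39410545 to 39519421, GRCm38) encodes the glucocorticoid receptor. It was present at 98.1, 101 and 114 CPM in CTL and at 86.1, 107 and 95.1 CPM in Nelfb-/- libraries. The groups overlapped, and the log2 fold change was -0.12 ± 0.14 (SE, n = 3 per group, adjusted p = 0.593, limma), with a 95% interval from -0.45 to 0.21. A change of 2-fold in either direction lay outside that interval.

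Nr3c2 (ENSMUSG00000031618, chromosome 8, 76899442 to 77245012) encodes the mineralocorticoid receptor, which also binds glucocorticoids with high affinity. It was measured at 3.56, 3.73 and 3.03 CPM in CTL and at 4.51, 3.96 and 3.02 CPM in Nelfb-/- libraries. The groups overlapped, with a log2 fold change of 0.14 and a 95% interval from -0.46 to 0.74 (adjusted p = 0.739, limma). Per kilobase of exon, a scale on which genes of different length can be set side by side, the level in CTL was 0.532 CPM per kb for Nr3c2 and 13.6 CPM per kb for Nr3c1.

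Of 12 tested close relatives of the members (16 listed, 14 in the table), 1 was past the threshold (8.33%, against 11.2% of all genes tested), and their median log2 fold change was 0.08. The count was 0 gene by gene without moderation of variances, 0 without Nelfb-/- replicate 3 and 2 without CTL replicate 3. Pgr, the progesterone receptor, did not exceed 2.703 CPM in any library and did not pass the test (adjusted p = 0.546, limma).

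Hsd11b1 (ENSMUSG00000016194, chromosome 1, 193221634 to 193264075) encodes the enzyme that regenerates active glucocorticoid, and it was the only member past the threshold. It stood at 51.2, 87.5 and 33.9 CPM in CTL and at 22.6, 8.62 and 7.51 CPM in Nelfb-/- libraries. The groups did not overlap, and the closest pair was CTL replicate 3 and Nelfb-/- replicate 1. The mean was 57.6 ± 27.4 CPM in CTL and was 12.9 ± 8.42 CPM in Nelfb-/- libraries (SD, n = 3), a log2 fold change of -2.23 ± 0.51 (SE, adjusted p = 0.033, limma) with a 95% interval from -3.45 to -1.01. Leaving out 1 library at a time kept the log2 fold change between -2.72 and -1.87. The call was retained without CTL replicate 3 (adjusted p = 0.027) or Nelfb-/- replicate 1 (0.016), and was lost without CTL replicate 1 (0.10), CTL replicate 2 (0.107), Nelfb-/- replicate 2 (0.102) or Nelfb-/- replicate 3 (0.118) by limma. It was also lost gene by gene without moderation (0.118). In bulk samples such as these, fewer cells that express a gene and less RNA per cell cannot be told apart. The adipocyte marker sum was also lower in every Nelfb-/- library than in every CTL library. For that sum the closest pair was narrow, 25570 CPM in Nelfb-/- replicate 2 and 25890 CPM in CTL replicate 3. Of the 8 marker genes 6 had a negative log2 fold change and 2 a positive one. The part of these markers in the level of Hsd11b1 was not tested. The gene Lamb3 spans Hsd11b1 on the opposite strand, but the exons of the 2 genes share 0 bases.

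The cofactor for the reductase reaction of Hsd11b1 is supplied by the enzyme encoded by H6pd. Per library, the ratio of Hsd11b1 to H6pd in CPM was 0.0468, 0.0848 and 0.0625 in CTL and 0.0319, 0.0183 and 0.0197 in Nelfb-/- libraries, so that the ratio was also lower in each Nelfb-/- library. H6pd itself was at 1095, 1033 and 543 CPM in CTL and at 710, 470 and 381 CPM in Nelfb-/- libraries, which overlapped (log2 fold change -0.76 ± 0.36, SE; adjusted p = 0.200, limma). Hsd11b2 encodes the enzyme that inactivates glucocorticoid, the opposite reaction. It was low throughout, at 1.94, 1.49 and 6.73 CPM in CTL and at 0.142, 1.40 and 1.06 CPM in Nelfb-/- libraries, and did not pass the test (adjusted p = 0.183, limma).

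Of the direct response genes, Fkbp5 is a cochaperone that lowers the affinity of the receptor for its ligand and is widely used as a readout of receptor activity. Fkbp5 (ENSMUSG00000024222, chromosome 17, 28399094 to 28517527) was at 388, 347 and 524 CPM in CTL and at 466, 404 and 453 CPM in Nelfb-/- libraries. All 3 Nelfb-/- values fell within the range of the CTL values. The log2 fold change was 0.09 ± 0.20 (SE, n = 3 per group, adjusted p = 0.789, limma), with a 95% interval from -0.39 to 0.57, and its sign turned without CTL replicate 2 (-0.04).

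Tsc22d3 (ENSMUSG00000031431, chromosome X, 140539528 to 140600659) encodes GILZ, a leucine zipper protein that carries part of the anti-inflammatory action of glucocorticoids and is known to restrain adipogenesis. It was at 459, 489 and 379 CPM in CTL and at 301, 252 and 284 CPM in Nelfb-/- libraries. The groups did not overlap, and Tsc22d3 was lower in Nelfb-/- libraries by 1.58-fold, less than the 2-fold limit (log2 fold change -0.66 ± 0.17, SE, 95% interval from -1.06 to -0.26, adjusted p = 0.043, limma). The adjusted p stayed at most 0.05 without CTL replicate 3 (0.021) or Nelfb-/- replicate 1 (0.044), and was 0.152 without CTL replicate 1, 0.161 without CTL replicate 2, 0.147 without Nelfb-/- replicate 2 and 0.156 without Nelfb-/- replicate 3. It was 0.055 without the abundance trend and 0.067 gene by gene. The ratio of Tsc22d3 to Fkbp5 in CPM was 1.18, 1.41 and 0.724 in CTL and 0.646, 0.625 and 0.627 in Nelfb-/- libraries. The 2 response genes thus stood in a lower ratio in every Nelfb-/- library than in any CTL library, and CTL replicate 3 was the nearest to them.

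Zbtb16 (ENSMUSG00000066687, chromosome 9, 48654297 to 48836222) encodes PLZF, a zinc finger transcription factor that is strongly induced by glucocorticoids in many cells. It was at 298, 335 and 138 CPM in CTL and at 168, 56.1 and 59.4 CPM in Nelfb-/- libraries. The groups overlapped because CTL replicate 3 lay below Nelfb-/- replicate 1. The mean was 257 ± 105 CPM in CTL and was 94.6 ± 63.9 CPM in Nelfb-/- libraries (SD, n = 3), and the log2 fold change of -1.54 ± 0.52 (SE, 95% interval from -2.79 to -0.29) did not pass the test (adjusted p = 0.096, limma). Without CTL replicate 3 the log2 fold change was -1.94 (adjusted p = 0.048, limma), and without Nelfb-/- replicate 1 it was -2.05 (adjusted p = 0.027), both past the threshold. Leaving out any of the other 4 libraries gave -1.38 to -1.26, with adjusted p from 0.245 to 0.270 (limma).

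Sgk1 (ENSMUSG00000019970, chromosome 10, 21882184 to 21999903) encodes a kinase that regulates ion transport and cell survival and responds to both corticosteroid receptors. It was at 96.2, 120 and 66.0 CPM in CTL and at 106, 84.1 and 98.3 CPM in Nelfb-/- libraries. The groups overlapped, and the log2 fold change was 0.07 with a 95% interval from -0.50 to 0.63 (adjusted p = 0.876, limma), and its sign turned under other scalings of the libraries. Its relative Sgk3 was at 12.4, 9.99 and 7.68 CPM in CTL and at 18.1, 12.6 and 16.9 CPM in Nelfb-/- libraries (adjusted p = 0.115, limma).

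Dusp1 (ENSMUSG00000024190, chromosome 17, 26505590 to 26562128) encodes a phosphatase that switches off MAP kinases and is an early response gene of glucocorticoids, growth factors and stress. It was at 71.1, 68.7 and 65.8 CPM in CTL and at 144, 55.0 and 58.0 CPM in Nelfb-/- libraries. The 3 CTL libraries were close together, at 68.5 ± 2.63 CPM, and Nelfb-/- replicate 1 alone lay above them while the other 2 Nelfb-/- libraries lay below. The log2 fold change was 0.17 ± 0.37 (SE, n = 3 per group, adjusted p = 0.782, limma), and without Nelfb-/- replicate 1 it was -0.28 (adjusted p = 0.133). The macrophage and leukocyte marker sum was 5209 CPM in Nelfb-/- replicate 1 and 1542 and 2606 CPM in the other 2, and its part in the level of Dusp1 was not tested. The exons of Dusp1 share 11 bases with those of Ergic1 on the opposite strand.

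**Figure D2:**
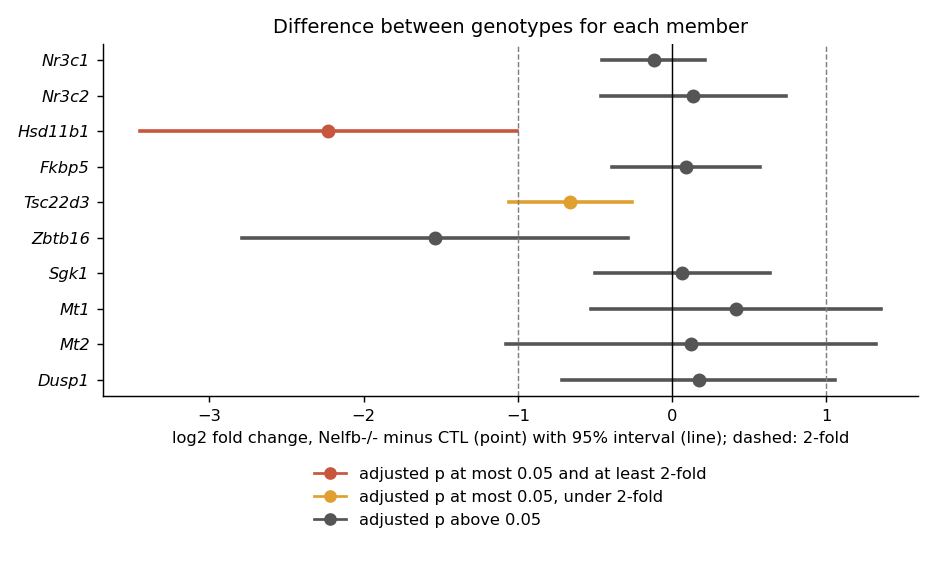
Log2 fold change of each member, Nelfb-/- minus CTL, as a point with its 95% interval as a line; dashed lines mark 2-fold. The interval of Hsd11b1 runs from -3.45 to -1.01, those of Tsc22d3 and Zbtb16 also lie below 0, and those of the other 7 members span 0.

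Mt1 and Mt2 encode metallothioneins, small proteins that bind zinc and copper and respond to metals and to glucocorticoids. They lie side by side on chromosome 8, Mt2 (ENSMUSG00000031762) from 94172664 to 94173568 and Mt1 (ENSMUSG00000031765) from 94179082 to 94180327, with 5513 bases between them. Mt1 was at 328, 423 and 758 CPM in CTL and at 851, 694 and 420 CPM in Nelfb-/- libraries. Mt2 was at 228, 317 and 855 CPM in CTL and at 516, 492 and 312 CPM in Nelfb-/- libraries. CTL replicate 3 was the highest CTL library and Nelfb-/- replicate 3 the lowest Nelfb-/- library for both genes, and the groups overlapped for both. The log2 fold change was 0.41 ± 0.39 for Mt1 (SE, n = 3 per group, 95% interval from -0.53 to 1.36, adjusted p = 0.509, limma). That of Mt2 was 0.12 ± 0.50 (95% interval from -1.08 to 1.32, adjusted p = 0.895, limma) and turned in sign without CTL replicate 1, CTL replicate 2 or Nelfb-/- replicate 1. On the linear scale the mean of Mt2 was 467 CPM in CTL and 440.0 CPM in Nelfb-/- libraries, so that its direction also depends on the log scale. Both intervals held a 2-fold rise, and that of Mt2 also held a 2-fold fall. The ratio of Mt2 to Mt1 was 0.695, 0.7495 and 1.13 in CTL and 0.606, 0.709 and 0.743 in Nelfb-/- libraries, which overlapped. The exons of Mt2 share 432 bases with those of Gm45774, which did not exceed 7.79 CPM.

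Per kilobase of exon, the members kept much the same order in both groups. Mt2 was highest in CTL at 794 ± 578 CPM per kb (SD, n = 3), followed by Mt1 at 403 ± 181, and within each of the 6 libraries Mt2 was the higher of the 2, by 1.28 to 2.39 times per kb. That order rests on the exon lengths, 0.588 kb for Mt2 and 1.246 kb for Mt1, whose merged exons cover its whole span. In CPM, without division by length, Mt2 was the lower of the 2 in every library except CTL replicate 3. Below Mt1, Tsc22d3 stood at 102 ± 13.1 CPM per kb, above Zbtb16 at 48.6 ± 19.8 and Fkbp5 at 44.3 ± 9.82, whose order within a library differed between CTL libraries. Dusp1 at 20.7 ± 0.793 and Sgk1 at 19.2 ± 5.51 CPM per kb likewise changed places between CTL libraries, as did Nr3c1 at 13.6 ± 1.11 and Hsd11b1 at 13.5 ± 6.44 CPM per kb. Nr3c2 was lowest at 0.532 ± 0.0570 CPM per kb. In Nelfb-/- libraries Zbtb16 stood at 17.9 ± 12.1 CPM per kb, in position 7 rather than 4, and Hsd11b1 stood at 3.04 ± 1.98 CPM per kb.

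The wider set of genes that glucocorticoids are known to induce was described by a list of 34 further genes, of which 33 were tested. Of these, 3 were higher and 8 were lower past the threshold, and the other 22 did not pass it, beside 7.58% higher and 3.64% lower over all genes tested. The median over the list was -0.62 on the log2 scale, beside 0.07 over all genes tested. Pck1, a key enzyme of gluconeogenesis and of glycerol synthesis in fat cells, fell from 678, 616 and 55.9 CPM in CTL to 2.94, 4.37 and 2.53 CPM in Nelfb-/- libraries (log2 fold change -6.47 ± 0.94, SE; adjusted p = 0.0096, limma). CTL replicate 3 lay well below the other CTL libraries for this gene and still above all Nelfb-/- libraries. Agt, the precursor of angiotensin, fell from 1972, 1982 and 1575 CPM to 631, 383 and 380 CPM (log2 fold change -2.02, adjusted p = 0.0077, limma).

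Fam107a, an actin-associated gene, was at 4.19, 4.01 and 3.88 CPM in CTL and at 0.0948, 0.0582 and 0.245 CPM in Nelfb-/- libraries, a log2 fold change of -4.66 ± 0.46 (SE, adjusted p = 0.0042, limma). The values of Nelfb-/- replicates 1 and 2 were below the worth of 3 reads. Arrdc2, an arrestin-domain gene, had a log2 fold change of -1.62 (adjusted p = 0.0072, limma), Tgm2, a transglutaminase, one of -1.55 (adjusted p = 0.014) and Sult1a1, a sulfotransferase, one of -1.19 (adjusted p = 0.023). The other 2 genes that fell were Klf15 and Lpin1, and the 3 that rose were Cdkn1c, Orm2 and Saa3, named here after their values were seen. The count of 11 was 3 gene by gene, 6 without CTL replicate 1, 4 without CTL replicate 2, 6 without Nelfb-/- replicate 2 and 2 without Nelfb-/- replicate 3. Several of the genes that fell, such as Pck1, Agt and Lpin1, are also known from adipocytes, whose marker sum was lower in Nelfb-/- libraries, and the part of that difference in the list was not tested.

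Genes known to be repressed by glucocorticoids, mostly cytokines, chemokines and proteases, were described by a list of 24, of which 20 were in the table and 16 were tested. Of these, 10 were higher past the threshold and 0 were lower (1 of 16 had a negative log2 fold change, and 0 were lower at an unadjusted p under 0.05 in limma), with a median log2 fold change of 2.04. Over all genes tested 7.58% were higher and 3.64% lower. The filter took the mean of all 6 libraries. A gene with a CTL mean under 0.448 CPM could thus be tested only if it was higher in Nelfb-/- libraries. Several of the 10 entered in this way, among them Il6 and Cxcl5, with CTL means of 0.0419 and 0.201 CPM. Without the filter, 11 of the 20 genes in the table were past the threshold. Ccl2, a chemokine that attracts monocytes, rose from 3.16, 2.85 and 9.25 CPM to 63.6, 54.3 and 61.0 CPM (log2 fold change 3.75 ± 0.44, SE; adjusted p = 0.0058, limma). The related chemokine Ccl7 rose from 7.26, 8.49 and 14.6 CPM to 65.2, 68.8 and 71.6 CPM (log2 fold change 2.82, adjusted p = 0.0040, limma). For both genes the 3 Nelfb-/- libraries lay close together, far above all CTL libraries.

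Il6, an inflammatory cytokine, was at or below 0.0467 CPM in every CTL library, under the worth of 3 reads, and at 0.854, 2.15 and 1.999 CPM in Nelfb-/- libraries, at least 13.3-fold higher against a floor of 3 reads per library. Cxcl5 was at 0, 0.0933 and 0.510 CPM in CTL and at 10.4, 41.8 and 41.5 CPM in Nelfb-/- libraries (log2 fold change 7.44 ± 0.998, SE; adjusted p = 0.0079, limma). CTL replicates 1 and 2 were below the worth of 3 reads for Cxcl5, so that the fitted size depends on the read added before the logarithm. Cxcl10, a chemokine induced by interferon, had a log2 fold change of 2.83 (adjusted p = 0.011, limma) and Lif, a cytokine of the interleukin 6 family, one of 2.26 (adjusted p = 0.018). The count of 10 was 5 gene by gene and 5 without CTL replicate 1, CTL replicate 2 or Nelfb-/- replicate 3, and 6 without Nelfb-/- replicate 2. Of 8 macrophage and leukocyte markers 7 rose past the threshold as well, against 7.58% of all genes tested. The 8 markers summed to 159 to 587 CPM in CTL and to 1542 to 5209 CPM in Nelfb-/- libraries, and no marker was at the floor in either group. The part of these cells in the levels of the repressed genes was not tested.

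**Figure D3:**
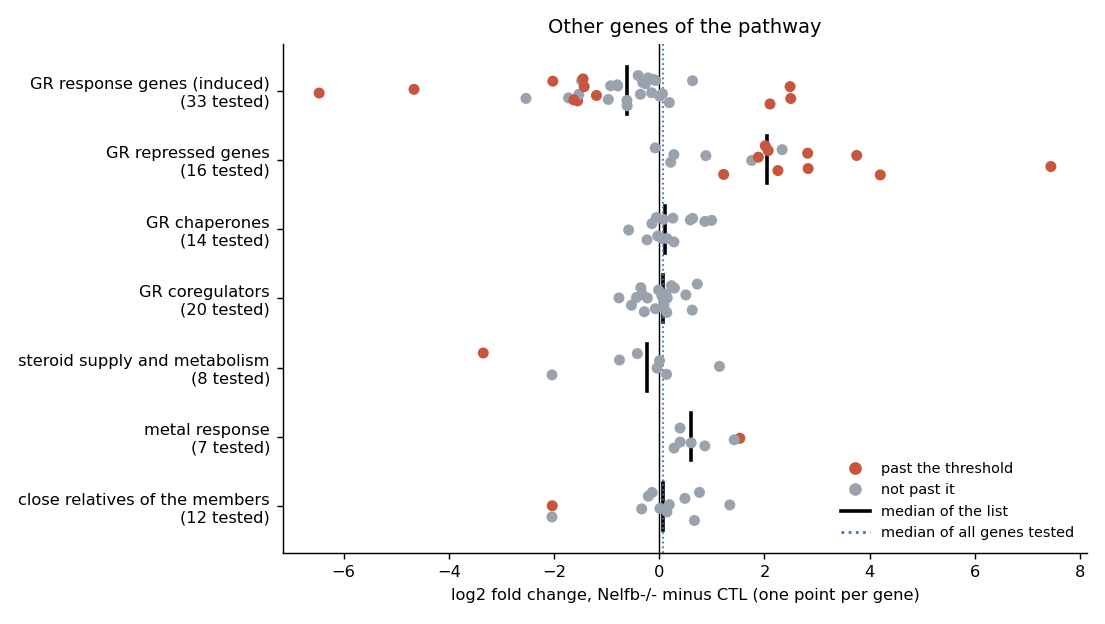
Log2 fold change, Nelfb-/- minus CTL, of each tested gene in 7 lists of the pathway, 1 point per gene, with genes past the threshold in red, the median of each list as a black bar and the median of all genes tested as a dotted line. The median was -0.62 for the induced genes and 2.04 for the repressed genes, and close to 0 for chaperones (0.11) and coregulators (0.07).

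The chaperones that hold and mature the receptor were taken as a further list. Of 14 chaperones and cochaperones, 0 were past the threshold in limma, with a median log2 fold change of 0.11. Of these, 5 had an unadjusted p under 0.05, and the gene-by-gene fit without moderation also called 0. At the adjusted p alone 2 were higher and 1 was lower, all under 2-fold, against 9.96% higher and 5.83% lower over all genes tested. The higher ones were Hsp90aa1, the inducible Hsp90, and Dnajb1, an Hsp40 protein, named after their values were seen. Hsp90aa1 was at 252, 266 and 287 CPM in CTL and at 472, 523 and 475 CPM in Nelfb-/- libraries (log2 fold change 0.87 ± 0.14, SE; adjusted p = 0.013, limma), and the groups did not overlap. Without CTL replicate 3 or Nelfb-/- replicate 1, 1 chaperone was past the threshold.

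Of 20 coactivators and corepressors of the receptor, 0 were past the threshold in limma, against 11.2% of all genes tested. An unadjusted p under 0.05 was seen for 4, while the gene-by-gene fit also called 0. The list's median log2 fold change was 0.07. At the adjusted p alone 2 were higher and 0 lower, near the 9.96% higher and 5.83% lower over all genes tested. Among them, Smarca4, a chromatin remodelling ATPase named after its values were seen, had a log2 fold change of 0.51 (adjusted p = 0.037, limma). Without CTL replicate 3, 1 coregulator was past the threshold.

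Of 15 genes of steroid supply and metabolism, 10 were in the table and 8 were tested. Their median was -0.23 on the log2 scale, and 1 was past the threshold (12.5%, against 11.2% of all genes tested). Akr1c14, a hydroxysteroid dehydrogenase, fell from 28.6, 15.0 and 10.98 CPM in CTL to 5.79, 0.815 and 0.857 CPM in Nelfb-/- libraries (log2 fold change -3.34 ± 0.80, SE; adjusted p = 0.037, limma). All Nelfb-/- libraries lay below all CTL libraries. The count for this list was 0 gene by gene, 0 without CTL replicate 1, CTL replicate 2, Nelfb-/- replicate 2 or Nelfb-/- replicate 3, and 2 without CTL replicate 3.

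Of 7 genes of the metal response, which serve as a comparison for Mt1 and Mt2, 1 was past the threshold (14.3%, against 11.2% of all genes tested). The log2 fold change was positive in 7 of 7, with a median of 0.61, against 54.6% of all genes tested. Without Nelfb-/- replicate 1 it was positive in 5 of 7 (not in Hmox1 or Slc30a1, named after their values were seen), with a median of 0.20, against 53.4% of all genes. Slc39a14, a zinc and iron importer, rose from 36.8, 43.1 and 66.5 CPM in CTL to 106, 165 and 146 CPM in Nelfb-/- libraries (log2 fold change 1.53 ± 0.27, SE; adjusted p = 0.016, limma). That call was lost gene by gene and without CTL replicate 1, CTL replicate 2, Nelfb-/- replicate 2 or Nelfb-/- replicate 3.

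**Figure D4:**
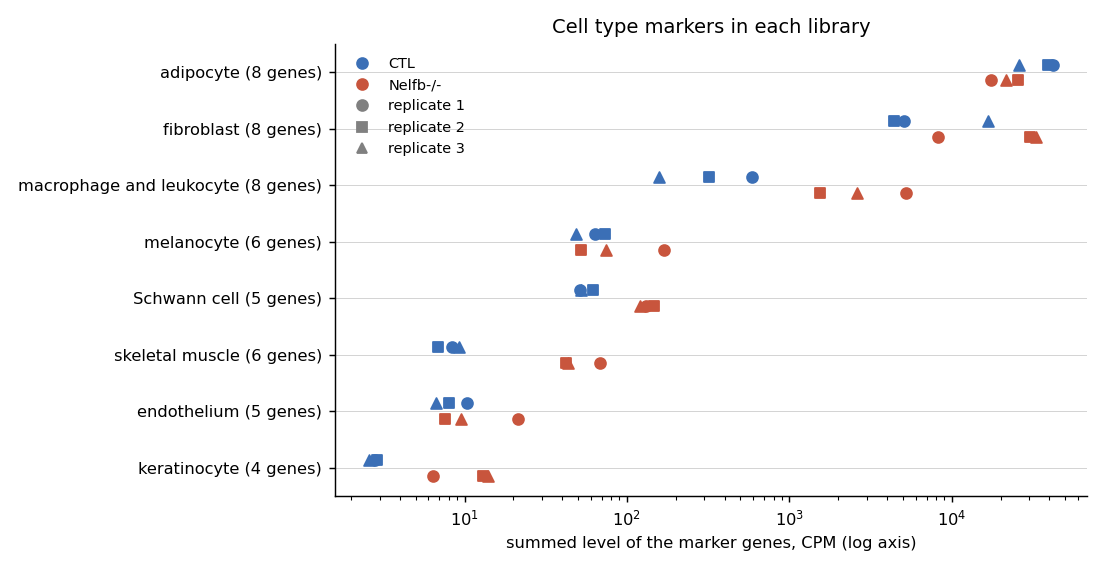
Summed level of the marker genes of 8 cell types in each library, in CPM on a log axis, with CTL in blue and Nelfb-/- in red and a symbol for each replicate number. Adipocyte markers lay at 25890 to 42210 CPM in CTL and at 17450 to 25570 CPM in Nelfb-/- libraries, and macrophage and leukocyte markers at 159 to 587 CPM and 1542 to 5209 CPM.

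Markers of other cell types that newborn dermis can hold were present at much lower sums. Schwann cell markers summed to 51.5 to 61.4 CPM in CTL and to 120 to 147 CPM in Nelfb-/- libraries, skeletal muscle markers to 6.91 to 9.21 and 42.3 to 68.6 CPM, and keratinocyte markers to 2.58 to 2.89 and 6.40 to 14.0 CPM. Melanocyte markers summed to 48.6 to 73.7 CPM in CTL and to 51.9 to 168 CPM in Nelfb-/- libraries, with Tyr, Mlana and Tyrp1 at the floor in all CTL libraries. Most of that sum in CTL was Mitf, at 47.2 to 72.4 CPM in CTL and 21.6 to 96.3 CPM in Nelfb-/- libraries, and the other 5 markers summed to 1.22 to 1.43 CPM in CTL against 30.3 to 72.1 CPM in Nelfb-/- libraries. Endothelial markers summed to 6.70 to 10.4 and 7.63 to 21.3 CPM. Past the threshold, 5 of 6 melanocyte, 4 of 4 skeletal muscle, 1 of 5 endothelial and 1 of 4 keratinocyte markers tested were higher. Of 5 Schwann cell markers 3 were higher and 1 was lower. These counts stand beside 7.58% higher and 3.64% lower over all genes tested. The filter took the mean of all 6 libraries. A marker with a CTL mean under 0.448 CPM could thus be tested only if it was higher in Nelfb-/- libraries. Tyr, Mlana and Tyrp1 entered in this way, and only 4 of the 6 skeletal muscle markers in the table were tested. The part of these cell types in the levels of the members was not tested.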

How the data were processed

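Bulk RNA-seq of 3 CTL and 3 Nelfb-/- libraries was analysed from the table of values that the authors deposited. The submitters' processing notes name the build mm10, STAR 2.7 and Partek 9.0.20.0202; the study states that genes under 10 reads were left out. The deposited values were in CPM, to which the authors' table adds an offset of 0.0001, subtracted here; each column then summed to 1e+06. Between 69.5% and 72.1% of the low values (20 reads or fewer) were a whole number of reads (tolerance 0.02 reads), so no count test was used. Strand use in counting is not given in the sources used here.

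CPM were brought to a common depth of 22.33 M reads (M, 1e+06), 1 read was added, and log2 values were tested in limma 3.58.1 (R 4.3.3) with an abundance trend, on all 6 libraries without covariates. Fold changes are on this scale. A mean of 10 or more reads (0.448 CPM) was required, which left 16252 of 17924, and p-values were adjusted over all of them by the Benjamini-Hochberg method. The steps were tested on simulated data. For 1 gene, an exact permutation test of 3 against 3 libraries cannot go below p = 0.1 (two-sided) and was not used. Whether each library came from a separate animal is not given, so p-values measure the spread between these libraries. No count interval was computed; floors of 3 reads cover counting error only.

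Members, lists and markers were chosen with earlier results of these data known. All members, Nelfb, and up to 6 genes past the threshold of each list (by adjusted p, then size) were named, with other genes identified where they appear; close relatives could be named beside their member. Positions and exon lengths came from GENCODE vM21 (GRCm38), and starts and ends of the members were the same in the authors' table. Alternatives covered the pseudocount, filter, scaling, variance model, replicate block and each library left out. CUT&RUN, RT-qPCR and imaging were not analysed here. Some genes of the lists are counted but not reported here by name.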

Additional observations from a re-analysis of the deposited data

How the results depend on the processing

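Every member was recomputed under 15 alternatives. Under other pseudocounts, filters and scalings and without the abundance trend, the number of members past the threshold was 1, Hsd11b1. It was 0 with a variance for each gene alone (no moderation), 2 with the replicate block and 0 to 2 with 1 library left out. Gene by gene, the counts past the threshold were 684 over all genes tested (1824 with moderation), 3 of the induced genes, 5 of the repressed genes, and 0 each for steroid metabolism, close relatives and the metal response. With 1 library left out, they were 426 to 2479 over all genes, 2 to 16 for induced genes, 5 to 13 for repressed genes, 0 to 1 each for chaperones, coregulators and the metal response, and 0 to 2 each for steroid metabolism and close relatives. The cause of these differences was not tested. The log2 fold change turned in sign for Fkbp5 without CTL replicate 2 (-0.035), for Sgk1 with median-of-ratios scaling (-0.0030), upper-quartile scaling (-0.0059), without CTL replicate 3 (-0.17) and without Nelfb-/- replicate 1 (-0.0058), for Mt2 without CTL replicate 1 (-0.28), CTL replicate 2 (-0.04) or Nelfb-/- replicate 1 (-0.01), and for Dusp1 without Nelfb-/- replicate 1 (-0.28). None of these values passed the test. With 1 library left out, the highest log2 fold changes of these 4 genes were 0.26 for Fkbp5, 0.26 for Sgk1, 0.68 for Mt2 and 0.42 for Dusp1. Hsd11b1 was at adjusted p = 0.118 gene by gene, and Tsc22d3 was at 0.055 without the trend, 0.067 gene by gene and 0.080 with the block (limma).

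Libraries of the same number correlated in their deviations from the group means at r = 0.515, -0.395 and 0.518 for numbers 1, 2 and 3 (across genes, which are not independent replicates), so the numbers were not taken to pair the libraries. CTL replicate 2 correlated best with Nelfb-/- replicate 1 (0.48), and CTL replicate 3 with Nelfb-/- replicate 2 (0.536), rather than with their own numbers. CTL replicate 3 and Nelfb-/- replicate 1 correlated at -0.631. The replicate block gave 2175 genes and 2 members past the threshold, with Zbtb16 at adjusted p = 0.034 (limma). All members lay far above the floor of 3 reads in every library, and the intervals reflect the spread among 3 libraries per group.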
